A study of Ovis aries with 16 samples.

Results

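The NCAPG-LCORL locus was described over chromosome 6 from 37150000 to 37600000 (Oar_v3.1), a window of 450 kb that was chosen by position and not by any measured value. Every methylation peak that overlapped this window was taken, and peaks sharing at least 1 bp were merged. The 16 fetuses had 713 peaks in the window, of 6410742 in the genome, and these merged into 103 regions, of 706111 in the genome. The regions are numbered here from 1 to 103 along the window.

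DNA methylation was measured in longissimus dorsi (LD) muscle of 16 sheep fetuses, 8 from ewes fed a hay diet of alfalfa haylage and 8 from ewes fed a corn diet that held a little haylage. The Polypay ewes received the diets from mid-gestation until necropsy late in gestation, and both diets supplied equivalent metabolizable energy. Fragments carrying methylated CpG sites were captured with a methyl-binding domain protein and sequenced, and the authors called peaks in each fetus separately. The study lists all 8 hay fetuses as pairs of twins and most of the 8 corn fetuses as twins too. Each diet thus had fewer dams than fetuses, although diet was given to the ewe. Dam, sex and sequencing lane are not tied to the numbered samples, so each fetus was treated as independent. P-values may be too small for that reason, and n = 8 counts fetuses and not dams. The peak lists hold no expression, so the tissue could not be checked against muscle markers.

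NCAPG encodes a subunit of condensin I, the complex that compacts chromosomes for cell division. LCORL, its neighbour, encodes a nuclear protein thought to act as a transcription factor. Variants around this pair of genes are associated with stature, growth and carcass size in sheep, cattle, horses and people. A peak of captured DNA marks a stretch rich in methylated CpG sites, which in mammals covers much of gene bodies and intergenic DNA, whereas promoters with CpG islands are mostly free of methylation. No annotation or sequence of Oar_v3.1 was used here, so no region was assigned to NCAPG, to LCORL or to a promoter. In the RefSeq gene table of a later sheep assembly (ARS-UI_Ramb_v3.0), the protein-coding genes LAP3, MED28, FAM184B, DCAF16, NCAPG and LCORL follow each other in this order on chromosome 6.

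Methylation peaks in the window were mostly narrow and weak. Each peak was scored as −log10 of its deposited p-value, so a higher score is a stronger call. The median score of the 713 window peaks was 1.37, against 1.47 over all peaks of the genome, and the median was lower in the window than in the whole list in 13 of 16 fetuses. The strongest window peak scored 7.23 and belonged to corn fetus 9. Window peaks had a median width of 250 bp, against 284 bp in the genome, and the widest was 1505 bp. Peaks of at least 1 kb made up 2.38% of the window peaks and 12.7% of all peaks. In a single fetus, peaks covered between 2.40% and 5.92% of the window, and the merged regions of all fetuses covered 11%.

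**Figure D1:**
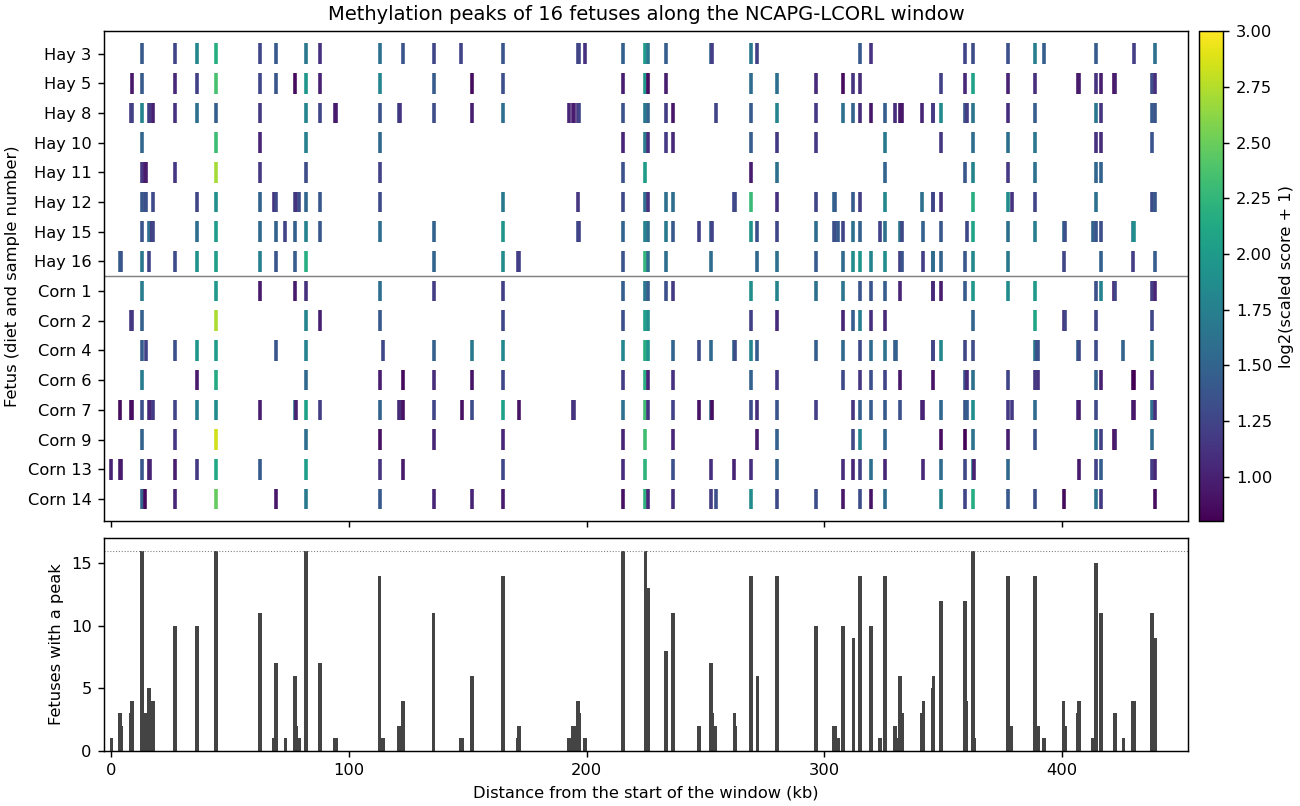
Peaks of each fetus along the window (upper panel, 1 row per fetus, hay above the grey line and corn below; the horizontal axis is the distance in kb from the window start, and colour is the log2 of the scaled score plus 1) and the number of fetuses with a peak in each of the 103 merged regions (lower panel). The 6 regions found in every fetus run through all rows as columns, at 12.4, 43.3, 81.1, 214.9, 224.2 and 362.0 kb from the start, and most other regions hold marks in only some fetuses.

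A few regions had a peak in nearly every fetus and most did not. Of the 103 regions, 23 (22.3%) had a peak in a single fetus and 39 (37.9%) in 2 to 4 fetuses. Another 26 had a peak in 5 to 13 fetuses, and 15 (14.6%) had one in at least 14. Across the genome the corresponding shares were 27.5% for a single fetus, 23.9% for 2 to 4 fetuses and 20.8% for at least 14. A peak in all 16 fetuses was found at 6 window regions (5.83%), against 12.5% of regions in the genome and 11% on the rest of chromosome 6. As shares, the window thus held more regions shared by 2 to 4 fetuses and fewer shared by all, and this is a description of 1 locus that was not tested. As a count, 6 regions shared by all was within the quartiles of stretches of 450 kb laid end to end. These were 5 and 14 on chromosome 6 (median 7.5) and 4 and 19 in the genome (median 9).

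**Figure D2:**
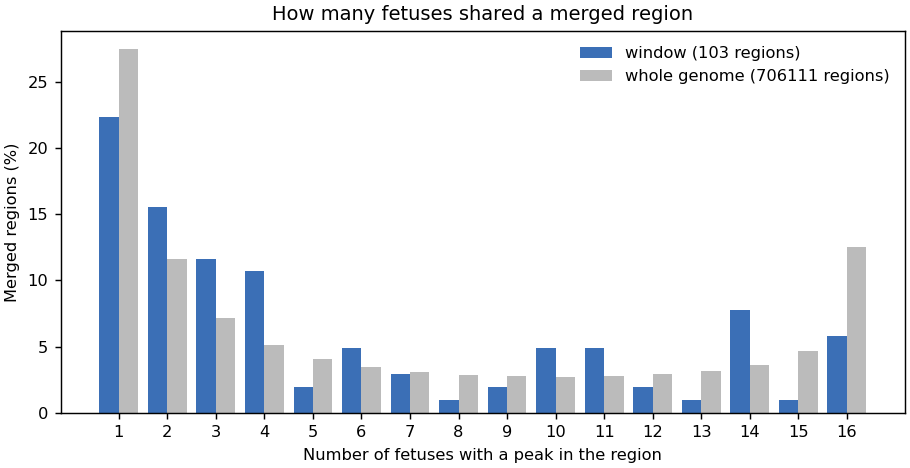
Share of merged regions (vertical axis, percent) by the number of fetuses with a peak (horizontal axis), for the window in blue and the whole genome in grey. The blue bar at 16 fetuses is 5.83% and the grey bar 12.5%, while the blue bars are the higher ones at 2, 3, 4, 6, 10, 11 and 14 fetuses, with 7.77% against 3.62% at 14.

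A merged region is the union of its peaks, so its width grows with the number of fetuses by construction. Regions with a peak in a single fetus had a median width of 169 bp, those in 2 to 4 fetuses 284 bp, those in 5 to 13 fetuses 754 bp and those in at least 14 fetuses 976 bp. Over the genome the same classes had 166, 283, 785 and 1307 bp. The 6 regions found in every fetus had a median width of 1023 bp, narrower than the 1653 bp of such regions in the genome. The 15 regions called in 14 or more fetuses held 268 of the 713 peaks (37.6%) and were spread over the whole window, with a median of 29965 bp and at most 50975 bp between neighbours. The widest region of the window was region 33 (37284767 to 37286329), which spanned 1563 bp but had a peak in only 5 hay and 6 corn fetuses. Regions 15 and 24, the next widest at 1483 and 1267 bp, had one in every fetus.

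For comparison between fetuses, scores were divided by a factor for each fetus and put on a log scale as log2(score + 1). A fetus lacking a peak took the value 0. Region 15 (37193313 to 37194795) had the highest level of the 6 regions found in every fetus, with a log2 score of 2.19 ± 0.36 (SD, n = 16). Its lowest, median and highest log2 scores were 1.46, 2.09 and 2.70 in hay and 1.86, 2.13 and 2.84 in corn, and the diets overlapped. It was the highest of the 6 in 8 of 16 fetuses.

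Region 47 (37374196 to 37375257) came next with a log2 score of 2.01 ± 0.25 (SD, n = 16), and it was the highest of the 6 in 5 fetuses. Region 15 was above region 47 in 10 of 16 fetuses, by a mean of 0.18 ± 0.35 (SD, n = 16) on the log2 scale, and this order was not tested.

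Regions 82 (37511998 to 37512980) and 24 (37231138 to 37232404) followed at 1.76 ± 0.28 and 1.72 ± 0.28 (log2 score, SD, n = 16). Region 82 was above region 24 in 8 of 16 fetuses, so their order was not settled. Region 6 (37162394 to 37163351) had a log2 score of 1.49 ± 0.16 (SD, n = 16), the smallest spread of the 6. Region 46 (37364912 to 37365887) was the lowest at 1.3 ± 0.25 (SD, n = 16), with values between 0.98 and 1.5 in hay and between 0.89 and 1.81 in corn. Region 24 was above region 6 in 14 of 16 fetuses and region 6 above region 46 in 11. Before scaling, the peaks of region 46 scored 1.04 to 2.21, so even a region called in every fetus could rest on weak calls.

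**Figure D3:**
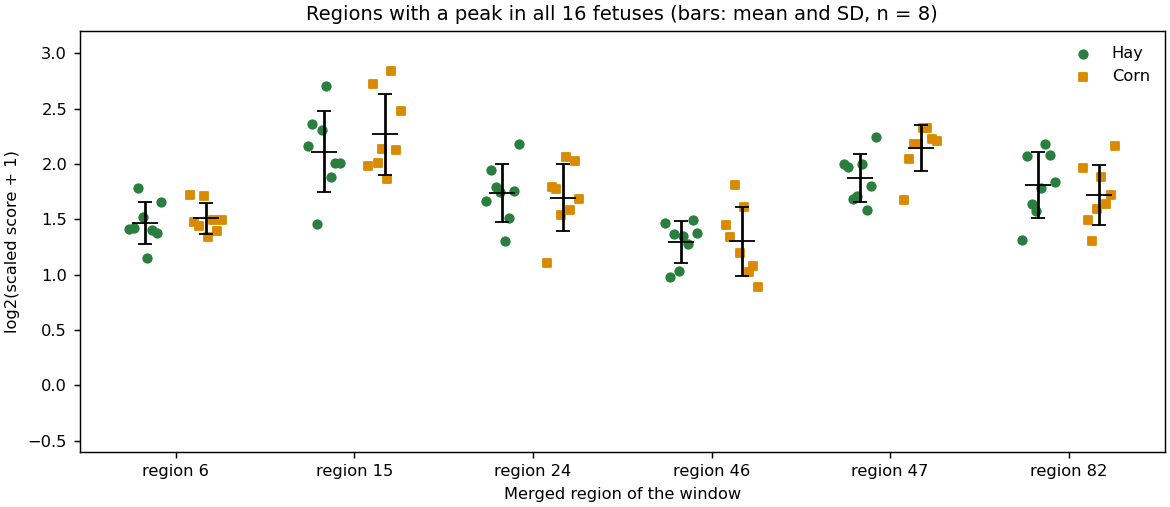
Log2 of the scaled score plus 1 (vertical axis) in every fetus at the 6 regions with a peak in all 16 fetuses, in order along the window, for hay (green circles) and corn (orange squares), with the mean and SD of 8 fetuses in black. Hay and corn overlap at all 6 regions, and regions 15 and 47 lie highest.

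Regions 46 and 47 lay close together, 214.9 and 224.2 kb from the start of the window. Over the next 13 kb followed regions 48, 49 and 50, with a peak in 13, 8 and 11 fetuses. Elsewhere the window had long stretches without a peak in any fetus. The longest ran over 20740 bp from 37321691 to 37342430, the next over 17896 bp from 37244477 to 37262372 and the third over 17266 bp from 37194796 to 37212061. In all, 11 stretches of over 10 kb made up 155756 bp of the window. On chromosome 6, 371 of 29777 gaps between merged regions (1.25%) were at least as long as the longest one here. The peak lists give no CpG density or read coverage for these stretches.

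Peak density was lower in the window than over the rest of its chromosome in every fetus. There were 9.90 ± 3 peaks per 100 kb (SD, n = 16) in the window and 13.7 ± 3.13 (SD, n = 16) on the rest of chromosome 6. The difference within a fetus averaged -3.75 peaks per 100 kb, and the window was lower in 16 of 16 fetuses (exact sign-flip permutation test, two-sided, P = 3.05e-05, the smallest this test can give). The test shows that the fetuses shared the direction of the difference, and it cannot say whether the locus is unusual for its chromosome. Of 260 stretches of 450 kb laid end to end along chromosome 6, the median held 109 merged regions with quartiles of 83 and 140. The 103 regions of the window lay within that range, and 112 of the stretches (43.1%) held fewer. The corresponding genome values were a median of 118 with quartiles of 86 and 158. These are counts of merged regions over all fetuses. Peaks per fetus, the measure tested above, were not counted for these stretches.

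Mean peaks per fetus fell from the stretch before the window to the window, and again to the stretch after it. The 450 kb before the window held 52.9 ± 15.3 peaks per fetus (SD, n = 16), the window 44.6 ± 13.5 and the 450 kb after it 36.3 ± 11.9. Inside the window, peaks per 50 kb rose and fell without a steady decline. Merged regions over all fetuses were as many before the window as in it, and fewer after it. The window count was below the stretch before it in 15 of 16 fetuses and above the stretch after it in 16 of 16. Against the mean of both flanks it did not differ detectably, with a mean difference of -0.063 peaks (exact sign-flip permutation test, two-sided, P = 0.976). Set against each flank alone, a comparison added after the data were seen, the difference was -8.38 peaks for the stretch before (P = 6.10e-05, same exact test) and 8.25 peaks for the stretch after (P = 3.05e-05, same exact test). Narrowing the window by 50 kb on each side, which also moves the flanks, gave -6.22 peaks against their mean (P = 9.16e-05, same exact test). These tests too weigh only how far the fetuses share a direction. How common such differences are between neighbouring stretches elsewhere was not tested.

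The number of window peaks followed the length of a fetus's whole list, of which they are a part. The relation was not computed for other stretches, so it cannot be read as particular to this locus. Hay fetuses 11 and 10 had the fewest window peaks, 22 and 25, and the shortest lists, of 261331 and 298820 peaks. Corn fetus 7 had the most, 66, with a list of 499815 peaks. Across the 16 fetuses, Pearson's r was 0.923 (permutation test, P = 1e-05, the smallest that 100000 resamples can give, adjusted P = 4e-05 over 4 relations) and Spearman's rho 0.938 (permutation test, P = 1e-05, adjusted P = 4e-05). Within hay r was 0.901 and rho 0.833 (exact permutation test, P = 0.00414 and 0.0154, n = 8), and within corn r was 0.958 and rho 0.976 (exact permutation test, P = 4.96e-05 and 0.000397, n = 8). Without hay fetuses 11 and 15, the farthest from the median list length, r was 0.893 (permutation test, P = 3e-05). Sequencing depth is unknown, and its part in the list lengths was not tested.

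**Figure D4:**
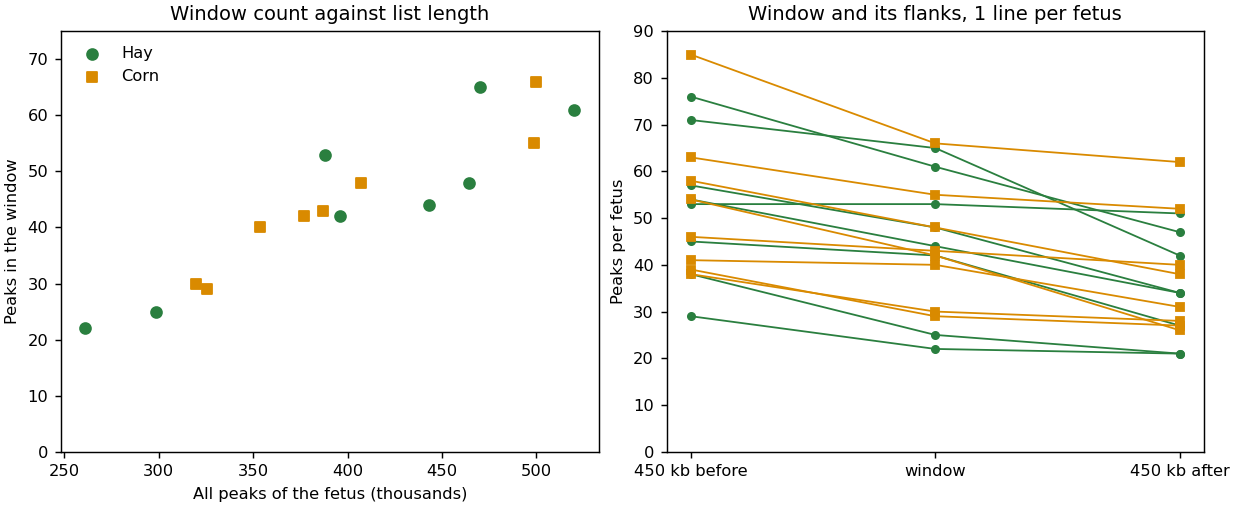
Left, window peaks (vertical axis) against all peaks of the fetus (horizontal axis, in units of 1000), 1 point per fetus, hay as green circles and corn as orange squares; the points rise from 22 window peaks in the shortest list to 66. Right, peaks per fetus in the 450 kb before the window, the window and the 450 kb after it, 1 line per fetus, with the window above the stretch after it in all 16 fetuses.

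Maternal diet made no detectable difference to the locus as a whole. Window peaks had a lowest, median and highest count of 22, 46 and 65 in hay and 29, 42.5 and 66 in corn, and the diets overlapped over nearly their full range. The means were 45.0 ± 15.4 peaks (SD, n = 8) in hay and 44.1 ± 12.3 (SD, n = 8) in corn, a difference of 0.875 peaks (exact permutation test, two-sided, P = 0.915). Bases under peaks averaged 17072 ± 4861 (SD, n = 8) in hay and 17417 ± 4236 (SD, n = 8) in corn (exact permutation test, P = 0.881). Per 100000 peaks of the same fetus, the window held 10.9 ± 2.10 peaks (SD, n = 8) in hay and 11 ± 1.34 (SD, n = 8) in corn (exact permutation test, P = 0.891). With the 2 similarity and score comparisons that follow, these made a family of 5, whose adjusted P-values lay between 0.832 and 0.915 (exact permutation tests, Benjamini-Hochberg).

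At the 6 regions found in every fetus, where no value of 0 enters, the mean log2 score was 1.72 ± 0.09 (SD, n = 8) in hay and 1.77 ± 0.06 (SD, n = 8) in corn. The lowest, median and highest values were 1.62, 1.69 and 1.89 in hay and 1.65, 1.79 and 1.85 in corn. The difference of -0.057 (hay minus corn) was below the SD of each diet (P = 0.166, exact permutation test). It depended on scaling, since unscaled scores gave -0.21 (exact permutation test, P = 0.0457), and on hay fetus 16, without which it was -0.068 (exact permutation test, P = 0.0381). The scaling factors averaged 0.938 in hay and 1.10 in corn.

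Fetuses on the same diet did not share detectably more of the window's regions than fetuses on different diets. Between any pair of fetuses, 26.2% to 65.1% of the window regions called in either were called in both. The least alike were hay fetus 11 and corn fetus 7, which had the fewest and the most window peaks, and the most alike were hay fetus 5 and corn fetus 1. The mean was 41.1% over 28 hay pairs, 46.1% over 28 corn pairs and 43% over 64 mixed pairs. Same-diet pairs exceeded mixed pairs by 0.0058 as a fraction of regions (exact permutation test, two-sided, P = 0.547). That changed when weak calls were left out. With peaks above the 25th percentile of each list the excess was 0.034 (exact permutation test, P = 0.00793), and with lists of equal length, cut to the 261331 highest scores, it was 0.023 (exact permutation test, P = 0.0357).

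Region by region, no part of the window passed the test for a diet difference. Of the 80 window regions seen in 2 or more fetuses, 0 had an adjusted P under 0.1 in limma fitted over all 512238 such regions of the genome, where 0.000586% did. The smallest adjusted P in the window was 0.919 (limma). An unadjusted limma P under 0.05 was found at 5 regions (6.25%), where the genome had 3.16%. Of these, 3 were higher in hay, against 1.43% of the genome in that direction, and 2 higher in corn, against 1.73%. Among the 3, region 43 met the filter of 2 or more fetuses through hay fetuses alone. By presence alone, 2 regions (2.50%) had an unadjusted P under 0.05 in Fisher's exact test, where 0.59% of the genome did. Both had more hay fetuses, against 0.149% of the genome in that direction, and 0 had more corn fetuses, against 0.441%. After adjustment Fisher's test called 0 regions in the window and 0% of the genome. More hay than corn fetuses had a peak at 24 of the 80 regions and more corn fetuses at 22, against 28.9% and 32.6% of regions in the genome. The mean log2 score was higher in hay at 45 of the 80 regions (56.2%), against 53.9% in the genome. The median difference in log2 score over the 80 regions was 0.023 (hay minus corn), and 0.016 over all regions.

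The region with the smallest limma P was region 16, on chromosome 6 from 37212062 to 37212818. It was called in all 8 hay fetuses but in just 3 of the 8 from corn-fed ewes. The log2 scores had a lowest, median and highest value of 1.03, 1.27 and 1.75 in hay and 0, 0 and 1.42 in corn, so hay was high throughout and corn was split, with corn fetus 13 inside the hay range. The means were 1.33 ± 0.24 (SD, n = 8) and 0.42 ± 0.59 (SD, n = 8), a difference of 0.92 ± 0.31 (SE; limma P = 0.00342, adjusted P = 0.919; exact permutation P = 0.00249). Fisher's exact test gave an unadjusted P = 0.0256 for presence. Corn fetuses 1, 7 and 13, with a peak, had 387117, 499815 and 407250 peaks in all. Of the 5 corn fetuses without one, fetuses 2, 6, 9 and 14 had shorter lists than these, of 319977 to 376977 peaks, and fetus 4 had 498464. Hay fetuses 11 and 10 had the shortest lists of all, of 261331 and 298820 peaks, and both had a peak here. The part of list length was not tested. The hay peaks scored 1.04 to 1.98 before scaling, around the genome median of 1.47, and with lists of equal length the difference fell to 0.73 and its unadjusted limma P rose past 0.05.

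Region 49 (37383020 to 37383784) had a peak in 7 hay fetuses and 1 corn fetus. The log2 scores had a lowest, median and highest value of 0, 1.32 and 1.70 in hay and 0, 0 and 1.34 in corn. The fetuses that went against their group were hay fetus 11, which had the shortest list of all, and corn fetus 1. Hay fetus 10, with the next shortest list, had a peak, while corn fetuses 7 and 4, with 499815 and 498464 peaks in all, had none. The means were 1.21 ± 0.55 (SD, n = 8) and 0.17 ± 0.47 (SD, n = 8), a difference of 1.04 ± 0.35 (SE; limma P = 0.00350, adjusted P = 0.919; exact permutation P = 0.00513). Presence alone gave an unadjusted P = 0.0101 (Fisher's exact test). Region 50, which follows at 37386008 to 37386794, was called in 4 hay and 7 corn fetuses and so leaned the other way (limma P = 0.173, exact permutation P = 0.175).

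Regions 43 (37346300 to 37346659) and 44 (37346700 to 37347037) had peaks in hay fetuses only, 4 and 3 of 8. They lie 40 bp apart and hay fetuses 3, 8 and 15 had a peak in both, so they are not separate observations. Both met the filter of a peak in 2 or more fetuses through hay alone. Their corn values are all 0 without spread, so their limma P-values are no fair test of diet. The 4 peaks of region 43 scored between 0.928 and 1.26 before scaling, all below the genome median. Its log2 score averaged 0.59 ± 0.64 (SD, n = 8) for hay against 0 in every corn fetus (limma P = 0.0349, adjusted P = 0.919; exact permutation and Fisher's exact P = 0.0769). At region 44 the hay score averaged 0.47 ± 0.64 (SD, n = 8) against 0 (limma P = 0.0621, adjusted P = 0.919; exact permutation and Fisher's exact P = 0.2).

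The largest difference towards corn among the 5 regions was at region 68 (37469296 to 37470083), with a peak in 7 corn and 3 hay fetuses. The log2 scores had a lowest, median and highest value of 0, 0 and 1.79 in hay and 0, 1.36 and 1.61 in corn. The highest of all belonged to hay fetus 16, so the groups overlapped fully. The difference was -0.69 ± 0.33 (hay minus corn, SE; limma P = 0.0394, adjusted P = 0.919), and neither presence (Fisher's exact test, P = 0.119) nor the score (exact permutation test, P = 0.0527) passed 0.05. The unadjusted limma P ran from 0.0175 to 0.0826 under the processing alternatives and from 0.0105 to 0.0838 with each fetus left out in turn.

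Region 47, which had a peak in every fetus, was the other one higher in corn. Its log2 scores had a lowest, median and highest value of 1.59, 1.89 and 2.25 in hay and 1.67, 2.19 and 2.33 in corn. Corn fetus 1 lay low in its group and hay fetus 16 high, and the ranges overlapped. The means were 1.88 ± 0.22 (SD, n = 8) in hay and 2.14 ± 0.21 (SD, n = 8) in corn, a difference of -0.27 ± 0.13 (hay minus corn, SE; limma P = 0.0399, adjusted P = 0.919; exact permutation P = 0.0283). Here the difference is one of score and not of presence. Leaving scores unscaled moved it to -0.44. Its unadjusted limma P rose past 0.05 under 5 other processing alternatives, namely weak peaks left out, lists of equal length, single-fetus regions included, no trend in the variance and summed scores. With each fetus left out in turn, the unadjusted limma P ran from 0.0122 to 0.0805.

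**Figure D5:**
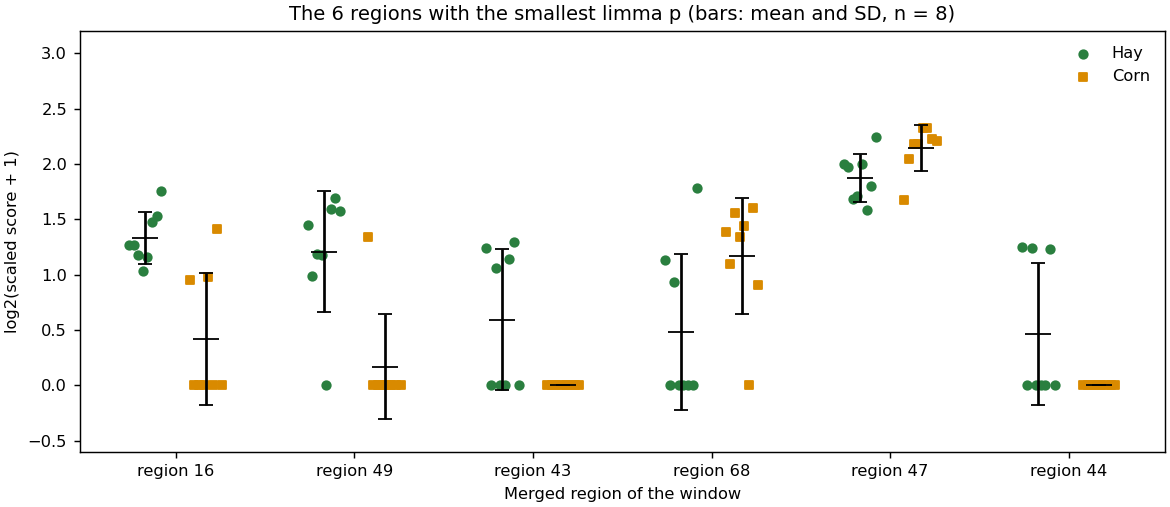
Log2 of the scaled score plus 1 (vertical axis) in every fetus at the 6 window regions with the smallest limma P, in order of P, for hay (green circles) and corn (orange squares), with the mean and SD of 8 fetuses in black. A point at 0 is a fetus without a peak; hay fetuses lie mostly above 1 at regions 16 and 49 where most corn fetuses lie at 0, and at region 47 no fetus is at 0.

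At the other 5 regions found in every fetus the differences between diets were small. They were -0.16 at region 15, 0.091 at region 82, 0.044 at region 24, -0.043 at region 6 and -0.0070 at region 46 (hay minus corn in log2 score), with exact permutation P-values of 0.405, 0.526, 0.763, 0.616 and 0.956. Each of these lay within the SD of either diet. At region 33, the widest of the window, hay averaged a log2 score of 0.87 ± 0.73 (SD, n = 8) and corn 0.88 ± 0.56 (SD, n = 8; exact permutation P = 0.997).

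Along the window, the stretch from 50 to 100 kb held the widest gap between the diets in the number of regions with a peak. A hay fetus had a peak in 4.62 ± 2.26 of its 12 regions (SD, n = 8) and a corn fetus in 2.25 ± 1.28 (SD, n = 8). This stretch holds region 16. Of the 12 regions of the stretch, 6 had a peak in a single fetus, which was hay fetus 8, 12 or 15 each time. From 400 to 450 kb the counts were 4.25 ± 2.12 (SD, n = 8) in hay and 5.12 ± 0.99 (SD, n = 8) in corn out of 14 regions. In the other 7 stretches of 50 kb the means differed by 0.75 regions at most. These stretches were not tested.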

How the data were processed

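Per the labels and the study's methods, reads were trimmed (Trimmomatic 0.33), mapped to sheep assembly Oar_v3.1 (BWA 0.7.15) and freed of duplicates (Picard 1.107), after which ChIPseeqer called peaks per fetus at a fragment length of 250 bp. The threshold and any input control are not given in the sources used here. The deposited lists give each peak a position and 1 value up to 0.135, read here as its p-value from the values alone. Positions are printed as deposited, and the smallest start is 0. Depth is unknown.

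The members, regions and tests were chosen with earlier results of these data known. Scores were −log10 of the p-value (0 set to 1e-100). Regions joined peaks sharing at least 1 bp, and the highest score of a fetus in a region was divided by its median ratio (0.765 to 1.38) over the 88488 regions called in every fetus. Values were log2(score + 1). Diets were compared with limma 3.58.1 (R 4.3.3, eBayes with trend) over all 512238 regions called in 2 or more fetuses, with Benjamini-Hochberg adjustment at 0.1, with Fisher's exact test, and with exact permutation over 12870 assignments (smallest P 0.000155). Paired values used 65536 sign flips. The limma fit was first tried on scores of these data, shuffled among fetuses within each region, with a known difference added to some regions. Other steps used Python 3.11.15, numpy 2.4.6, pandas 2.3.3 and scipy 1.17.1.

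Named regions were the 6 with a peak in every fetus, the 6 with the smallest limma P, the 3 widest, any past the adjusted threshold (0) and the 3 longest stretches without a peak. Alternatives covered the peaks used, merging, scaling, pseudocount, filters, window limits and each fetus left out.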

Additional observations from a re-analysis of the deposited data

Results flagged for a closer look

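In 32 groups of 8 values (window counts, bases, shares, and the log2 scores of the named regions, in each diet), the most extreme fetus was set against the rest with Dixon's criterion at 95%, and 5 were marked. Chance marks about 1 in 20 where values are continuous. That rate does not apply to 3 of the 5, at regions 49 and 68, which rest on the value 0 given to a fetus without a peak. Corn fetus 7 had 26641 bases under peaks in the window, far above the other corn fetuses, and also the longest corn list. At region 47, corn fetus 1 had a log2 score of 1.67, well under the other corn fetuses. At region 49, hay fetus 11 had a score of 0 while the other hay fetuses had a peak, and corn fetus 1 had a log2 score of 1.34 while the other corn fetuses were at 0. At region 68, corn fetus 9 had a score of 0 while the other corn fetuses had a peak. Its list was the shortest of the corn group, but hay fetus 15, with the longest list of all, had no peak there either.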

How the results depend on the processing

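Hay and corn fetuses could not be compared as pairs, because each ewe received either hay or corn and the labels give no pairing. Against the rest of chromosome 6 the window stayed lower under every alternative run, and limma called 0 window regions at the adjusted threshold under every one. Hay minus corn per 100000 peaks turned to 0.168 without weak peaks, 0.191 with lists of equal length and 0.014 in the narrowed window. The excess similarity of same-diet pairs passed 0.05 without weak peaks (0.034) and with equal lists (0.023). Equal lists left 2 regions called in every fetus. The count with an unadjusted limma P under 0.05 fell to 2 without weak peaks and to 3 with single-fetus regions included. Unscaled scores moved the mean over the 6 regions called in every fetus to -0.21. Hay minus corn turned to -0.077 at region 82 and -0.11 at region 24 with unscaled scores, to -0.030 and -0.035 with summed scores, and at region 33 to 0.00075 without weak peaks and 0.011 with a pseudocount of 5. The flank difference was -6.22 for the narrowed window, -8.38 for the stretch before and 8.25 for the stretch after. The cause was not tested for any of these. With each fetus left out in turn, values ran from -1.98 to 4.16 (peaks), -1406 to 973 (bases), -0.546 to 0.235 (per 100000), -0.633 to 0.433 (flanks), -0.0038 to 0.014 (similarity), -0.075 to -0.043 (regions called in every fetus), -0.041 to 0.11 (region 24), -0.088 to 0.0021 (region 6), -0.066 to 0.066 (region 46) and -0.13 to 0.12 (region 33). The limma count ran from 2 to 7, with 2 without hay fetus 15, corn fetus 6 or corn fetus 13 and 3 without corn fetus 7 or 9, and the Fisher count from 2 to 4, with 4 without hay fetus 16. Regions 43 and 44 gave no value where too few peaks were left. With no depth or counts, missing methylation and missing reads cannot be told apart in a fetus without a peak.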

Other observations

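Many of the narrow regions lay side by side. Of the 103 regions, 57 (55.3%) were within 300 bp of another region, and 29 of the 102 gaps between regions were no longer than that. Regions with such a close neighbour had a median width of 283 bp and a peak in a median of 3 fetuses, while the others had a median width of 761 bp and a peak in a median of 10 fetuses. The fragment length set for peak calling was 250 bp, which was also the median width of a window peak, and the part of that setting in these widths was not tested. Close neighbours are therefore counted as separate regions only because the peaks did not touch. Peaks sharing at least 50 bp, merged under a stricter rule, gave 108 regions in place of 103.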
